A study of Mus musculus with 36 samples.

Results

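The Hox genes encode homeodomain transcription factors and lie in 4 clusters in the mouse genome. The 39 protein-coding genes whose symbol is Hoxa, Hoxb, Hoxc or Hoxd followed by a number were followed here, out of 54115 genes with a transcript in the data and 21805 protein-coding genes. They were chosen by symbol alone, without regard to expression. The clusters hold 11 genes (A, minus strand, chr6:52155590-52260880), 10 genes (B, plus strand, chr11:96194316-96368256), 9 genes (C, plus strand, chr15:102921103-103036852) and 9 genes (D, plus strand, chr2:74668310-74765142 of GRCm38).

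Within a cluster, the genes are numbered by paralogue group from the 3′ end to the 5′ end, and along the body axis the low-numbered genes are switched on further towards the head and the high-numbered genes further towards the tail or the tips of the limbs. Dermal fibroblasts keep part of this pattern in the adult, so that the set of Hox genes a skin fibroblast transcribes depends on the body site it came from. Silent Hox genes are held under Polycomb-group repression, and macroH2A, the histone variant family deleted in this study, is a component of repressed chromatin that has been mapped over Hox clusters.

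The series holds 36 RNA-seq libraries from macroH2A wild-type (WT) mice and from mice that lack both macroH2A genes in every cell (double knockout, dKO; H2afy and H2afy2). Bulk melanomas (6 WT and 6 dKO), CD8+ T cells sorted from tumours (4 and 4) and cancer-associated fibroblasts sorted from tumours (CAFs, 4 and 4) came from mice that carried the Braf CA and Tyr-CreERT2 alleles, among others, in both genotypes. In these mice the Tyr promoter drives the Cre in melanocytes, and 4-hydroxytamoxifen on the medial dorsal skin of 7- to 11-week-old mice started the tumours (9 weeks for the T cell mice, 10 weeks for the CAF mice), which were taken after 50 days. The strain was a mixed background, mainly 129S. Immortalized dermal fibroblasts (iDFs), cultures from the skin of tumour-free WT and dKO males, were kept in 0.5% serum for 24 h (0 min) and then given 10% serum for 30 min, with 2 libraries per genotype and time. The sources used here do not give the skin site from which the iDF cultures came or state how many mice stand behind the 2 replicates, so in the iDFs genotype and culture of origin cannot be told apart, and p-values measure the spread between these libraries only. CAFs were gated on CD140a (Pdgfra), a fibroblast surface receptor.

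Counts assigned to genes ranged from 17526681 to 85432438 per library. Reads of both targeted genes remained in the dKO libraries, so that they mark the deletion only in part: H2afy2 was lower in dKO iDFs at 0 min (41.6 and 42.9 TPM in WT, 25.1 TPM in both dKO libraries), whereas H2afy in CAFs overlapped between WT (80.4 to 89.0 TPM) and dKO (77.2 to 87.6 TPM). The fibroblast marker list summed to between 46650 and 70610 TPM over the CAF libraries, to between 11960 and 14310 TPM in the iDFs at 0 min and to between 4556 and 16130 TPM in the bulk tumours. In bulk samples, fewer cells of a type and less RNA per cell cannot be told apart.

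The promoter sequences of 3 Hoxa genes that were higher in dKO iDFs are shown, because the genes lie in 1 cluster and differed between genotypes together while their promoters differ in CG content. Each is the 250 bases before the RefSeq start on the minus strand of GRCm38.p6, with CG dinucleotides, the sites of DNA methylation and a hallmark of Polycomb-bound promoters, in capitals. The Hoxa13 window is chr6:52260881-52261130, the Hoxa2 window chr6:52164832-52165081 and the Hoxa7 window chr6:52218574-52218823.
Hoxa13: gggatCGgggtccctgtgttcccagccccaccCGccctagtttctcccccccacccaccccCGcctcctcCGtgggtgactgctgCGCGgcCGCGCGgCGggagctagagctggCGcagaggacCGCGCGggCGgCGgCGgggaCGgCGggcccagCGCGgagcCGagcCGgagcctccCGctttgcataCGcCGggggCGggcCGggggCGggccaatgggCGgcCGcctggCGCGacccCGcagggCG
Hoxa2: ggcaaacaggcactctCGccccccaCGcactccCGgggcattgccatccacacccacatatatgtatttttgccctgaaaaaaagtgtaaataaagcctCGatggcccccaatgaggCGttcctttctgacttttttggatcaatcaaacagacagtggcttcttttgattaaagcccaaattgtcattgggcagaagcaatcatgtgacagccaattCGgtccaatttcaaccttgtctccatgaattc
Hoxa7: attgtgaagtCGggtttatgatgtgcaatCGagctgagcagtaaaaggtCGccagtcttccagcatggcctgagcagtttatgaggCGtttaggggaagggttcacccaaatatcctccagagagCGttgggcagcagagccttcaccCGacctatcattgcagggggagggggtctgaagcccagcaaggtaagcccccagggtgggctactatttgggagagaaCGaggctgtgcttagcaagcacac
The Hoxa13 window held 35 CG dinucleotides, a number reached by 2.97% of 32851 promoters of the same length, whereas the Hoxa2 window held 6 (reached by 50.4%) and the Hoxa7 window 7 (reached by 46.3%). Over the 24 windows available for 22 Hox genes the median was 12.5 CG, against 6 over all promoters. These windows came mostly from clusters A and D, with Hoxb1, Hoxb4 and Hoxb8 alone from cluster B and Hoxc4 alone from cluster C. Searching both strands, TATAAA was found in 4 of the 24 Hox windows and in 12.4% of all promoters, and the Pbx-Hox type motif TGATNNAT was found in 4 of 24 and in 7.68% of all. At least 1 CG was present in all 24 Hox windows and in 92.1% of all promoters.

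Hox transcripts were most abundant in the iDFs, lower in CAFs and whole tumours, whose summed levels overlapped, and nearly absent in CD8+ T cells. Levels are in TPM (transcript abundance scaled for transcript length and library size) and can be compared between genes. The summed level of the 39 genes ranged from 559 to 564 TPM in WT iDFs at 0 min, from 114 to 150 TPM in WT CAFs, from 87.7 to 137 TPM in WT tumours and from 0.506 to 4.83 TPM in WT CD8+ T cells. With a gene called expressed at a median of 1 TPM or more in its group, 27 of 39 Hox genes were expressed in WT iDFs at 0 min, 19 in WT CAFs, 22 in WT tumours and 0 in WT T cells. Over all samples of an experiment, 5 Hox genes stayed under 1 TPM in every iDF library, 15 in every CAF library, 13 in every tumour and 38 in every T cell library, and 1 Hox gene in the iDFs, 5 in the CAFs, 1 in the tumours and 17 in the T cells were listed at 0 throughout.

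**Figure D1:**
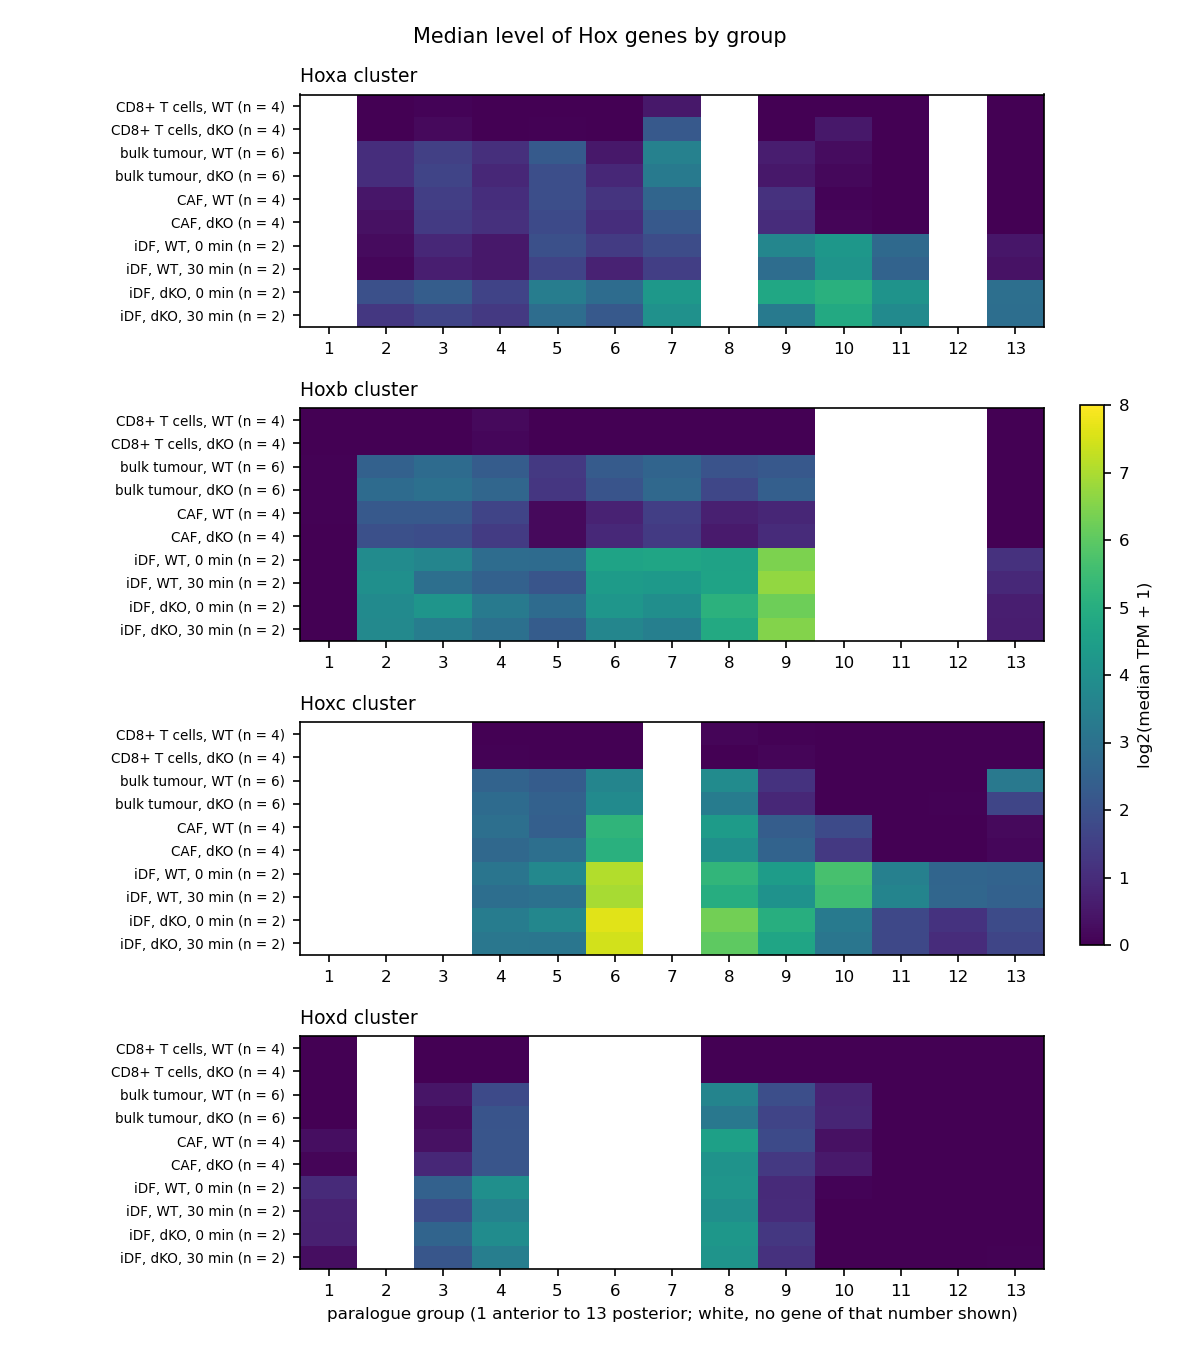
Heat map of the median level of each Hox gene, as log2 of TPM plus 1 (colour), in the 10 groups of libraries (rows), with genes ordered along their clusters from paralogue 1 to 13 (columns) and white where no gene of that number is shown. In cluster A the expressed genes reach Hoxa11 in WT iDFs and Hoxa13 in dKO iDFs and end at Hoxa9 in the CAFs. In cluster C they reach Hoxc13 in the iDFs and end at Hoxc10 in the CAFs, tumours have Hoxc13 without Hoxc10 to Hoxc12, and T cells are nearly empty.

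The WT iDFs expressed Hox genes from paralogue groups 2 to 13. Hoxc6, a thoracic-level gene, was the most abundant at 134 and 137 TPM in the 2 libraries, followed by Hoxb9 at 86.5 and 83.5 TPM and Hoxc10 at 51.6 and 49.3 TPM. All 9 genes of cluster C were expressed, as were Hoxa5 to Hoxa11, Hoxb2 to Hoxb9 and, in cluster D, Hoxd3, Hoxd4 and Hoxd8. At the 5′ end of the expressed ranges, Hoxa11 stood at 5.55 and 5.75 TPM, Hoxc13 at 5.33 and 4.33 TPM and Hoxb13, a gene of the tail end of the axis, at 1.35 and 1.02 TPM. At the other end, Hoxb2 stood at 12.1 and 14.7 TPM, and Hoxb1 was listed at 0. Paralogue groups 5 to 8 made up 50.8% and 51.5% of all Hox TPM in the 2 libraries, and groups 9 to 13 made up 38.5% and 37.6%.

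In WT CAFs the same leading gene came with a different rank behind it. Hoxc6 was again highest, at 36.9, 24.6, 36.1 and 36.6 TPM, and was followed by Hoxd8 (22.6, 22.1, 27.5 and 21.7 TPM) and Hoxc8 (16.6, 13.4, 25.03 and 23.1 TPM). The levels of Hoxd8 and Hoxc8 overlapped between libraries, so their order is not fixed by these data, while Hoxc6 overlapped Hoxd8 and Hoxc8 only through its library at 24.6 TPM. The expressed range ran from Hoxa3 to Hoxa9, from Hoxb2 to Hoxb7 with Hoxb5 and Hoxb6 under 1 TPM, from Hoxc4 to Hoxc10 and from Hoxd4 to Hoxd9. Hoxa11, Hoxa13, Hoxb13 and Hoxc12 were listed at 0 in all 4 WT libraries, and Hoxc11 reached no more than 0.0449 TPM. Paralogue groups 9 to 13 made up 5.98% to 13.1% of Hox TPM in WT CAFs.

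Set against each other in 1 fit of the 8 CAF and all 8 iDF libraries, 35 Hox genes could be tested, of which 4 were called higher and 23 lower in WT CAFs than in WT iDFs (edgeR quasi-likelihood test; a call needed a Benjamini-Hochberg adjusted p under 0.05 together with a log2 fold change beyond 0.75 in either direction). Of all 17619 genes tested, 30.6% were called higher and 19.6% lower. The median log2 fold change was -1.75 over the Hox genes and 0.10 over all genes. The count filter passed 24 Hox genes in the CAFs alone and 34 in the iDFs alone. Genes that entered through the iDFs, such as Hoxa11, Hoxa13, Hoxb13 and Hoxc12 (0 in all WT CAF libraries), could be called only lower. The count of lower calls and the Hox median hold such genes and do not measure a shift of the whole family. Log2 fold changes are given ± SE.

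Among genes with reads in both kinds of fibroblast, the gaps were wide from Hoxb5 to Hoxb9 in cluster B. They were wide in other clusters too, as at Hoxc13 (log2 fold change -5.49 by DESeq2). Hoxb9 ranged from 0.432 to 0.965 TPM over the WT CAF libraries, against 83.5 and 86.5 TPM in the WT iDFs (log2 fold change -6.52 ± 0.41, adjusted p = 5.76e-08). Hoxb5 ranged from 0.144 to 0.265 TPM in the CAFs, against 5.83 and 5.95 TPM in the iDFs, and Hoxb7 from 0.972 to 1.81 TPM, against 26.7 and 23.3 TPM. None of Hoxb5, Hoxb7 and Hoxb9 overlapped between the 2 kinds of fibroblast. Hoxc10 was also lower in CAFs (0.534 to 4.22 TPM; -3.69 ± 0.64, adjusted p = 0.000254).

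The 4 genes higher in WT CAFs were Hoxa3 (1.24 to 2.56 TPM, against 0.766 and 0.972 TPM; log2 fold change 1.74), Hoxa4 (2.15), Hoxa7 (0.88) and Hoxd9 (2.19 to 3.12 TPM, against 0.798 and 1.05 TPM; 1.77). They come from the anterior and middle part of cluster A and from cluster D. The call on Hoxa7 was lost in part of the alternative analyses. Sorted cells and starved cultures also differ in tissue, culture, immortalization, serum and library run, which cannot be told apart here.

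Whole tumours and the fibroblasts sorted out of them differed in part of the Hox genes, as they did in many genes of any kind. In WT tumours the highest genes were Hoxc8 (9.64 to 17.99 TPM), Hoxc6 (lowest 9.56, median 11.5, highest 14.45 TPM) and Hoxd8 (6.87 to 11.96 TPM), with overlapping levels. In a fit of all CAF and bulk libraries, 29 Hox genes were tested, 5 were called higher in WT CAFs and 11 lower, against 19.1% and 26.1% of all 19207 genes tested, and the median log2 fold change was -0.06 over the Hox genes and -0.11 over all genes.

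Higher in CAFs were Hoxc6 (1.40 ± 0.17, adjusted p = 3.02e-06), Hoxd8 (1.69 ± 0.22, 5.34e-06), Hoxc9 (1.96 ± 0.41, 0.000547), Hoxa6 (1.59 ± 0.53, 0.0151) and Hoxc10. With a transcript length offset in edgeR, the log2 fold change of Hoxd8 was 1.12 (adjusted p = 0.000644). A 557-base transcript of Hoxd8 had a median of 5.68 TPM in WT tumours and of 0 in WT CAFs. Hoxc10 ranged from 0.534 to 4.22 TPM in WT CAFs and from 0 to 0.114 TPM in WT tumours, with a bulk median of 0, so that no fold is given (adjusted p = 0.000219). Lower in CAFs than in whole tumours were 7 genes of cluster B (Hoxb3 to Hoxb9), together with Hoxa2, Hoxa7, Hoxc13 and Hoxd10. Hoxa7 had a lowest, median and highest level of 4.96, 10.3 and 13.7 TPM in WT tumours and ran from 3.59 to 5.55 TPM in WT CAFs, so the ranges overlapped (log2 fold change -1.30, adjusted p = 0.00936). Hoxb9 ranged from 1.01 to 7.25 TPM in WT tumours (median 3.56 TPM) and stayed under 1 TPM in WT CAFs (-2.03, adjusted p = 0.0142). Of the protein-coding transcripts of Hoxb9, 1 ranged from 0 to 6.54 TPM in WT tumours (median 1.79 TPM) and was listed at 0 in every CAF library. With so low a gene level in the CAFs, the split between its transcripts is uncertain there.

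Hoxc13, which is known to drive hair keratin genes in the follicle, had the largest fold change among the genes lower in CAFs than in tumours. It was measured at 16.4, 9.86, 6.96, 5.01, 11.7 and 3.05 TPM in the 6 WT tumours and at no more than 0.320 TPM in the WT CAFs (log2 fold change CAF against tumour -5.67 ± 0.71, adjusted p = 4.27e-06). The summed level of a list of hair shaft keratin genes, chosen after the values had been seen, ranged from 27.7 to 320 TPM in WT tumours, reached at most 6.61 TPM in any CAF library and was 0 in the iDFs. It ranged from 160 to 425 TPM in the WT CD8+ T cell libraries and from 101 to 238 TPM in the dKO ones, in all of which Hoxc13 was listed at 0. Of the 13 listed keratin genes, however, 1 passed the count filter in the T cells and 12 in the tumours. The T cell sum thus does not stand for the list as a whole.

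In whole tumours no Hox gene was called different between the genotypes. Of 26 Hox genes tested, 0 were called higher and 0 lower by edgeR with batch and sex in the model, against 0.0166% and 0.0276% of all 18097 genes tested, and DESeq2 also called 0. At an unadjusted p under 0.05, 0 Hox genes were higher and 1 was lower. The median log2 fold change was -0.10 over the Hox genes and 0.02 over all genes, with 7 above 0 and 19 below. No Hox gene had TPM ranges that separated the genotypes, where 0.309% of all tested genes lay wholly higher in dKO and 0.315% wholly lower.

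Hoxc13 was measured at 3.55, 5.61, 1.85, 2.24, 1.61 and 2.16 TPM in the 6 dKO tumours. The dKO levels sat in the lower part of the WT range and overlapped it at WT tumours 4 and 6 (log2 fold change -1.51 ± 0.59, adjusted p = 0.616). Within library preparation batches 1, 2 and 3 its log2 ratio of group means was -2.05, -1.11 and -1.85. The hair keratin list summed to between 3.60 and 42.0 TPM in the dKO tumours (median 26.5 TPM, against 118 TPM in WT). The part of hair follicle content in the Hoxc13 values was not tested. Females gave 4 of 6 WT tumours but 1 of 6 dKO tumours, and the fold change above comes from a model that held sex.

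For the other abundant genes, the bulk ranges of WT and dKO lay over each other. Hoxc6 had 9.56 to 14.45 TPM in WT and 8.92 to 19.0 TPM in dKO, and Hoxc8 had 9.64 to 17.99 TPM and 6.19 to 14.3 TPM. Hoxb9 had 1.01 to 7.25 TPM in WT and 1.43 to 7.90 TPM in dKO (log2 fold change 0.42 ± 0.63), and its log2 ratio changed sign between batches (0.30, -0.85 and 0.82). Tumour 6 of the dKO group stood apart in its fibroblast marker sum, at 16130 TPM against 4556 to 8923 TPM in the other tumours. It had the highest Hoxc6 (19.0 TPM) and Hoxd8 (16.8 TPM) and the lowest Hoxa7 (2.81 TPM) and Hoxc8 (6.19 TPM) of all 12 tumours. The number of called Hox genes was 0 without it as well.

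**Figure D2:**
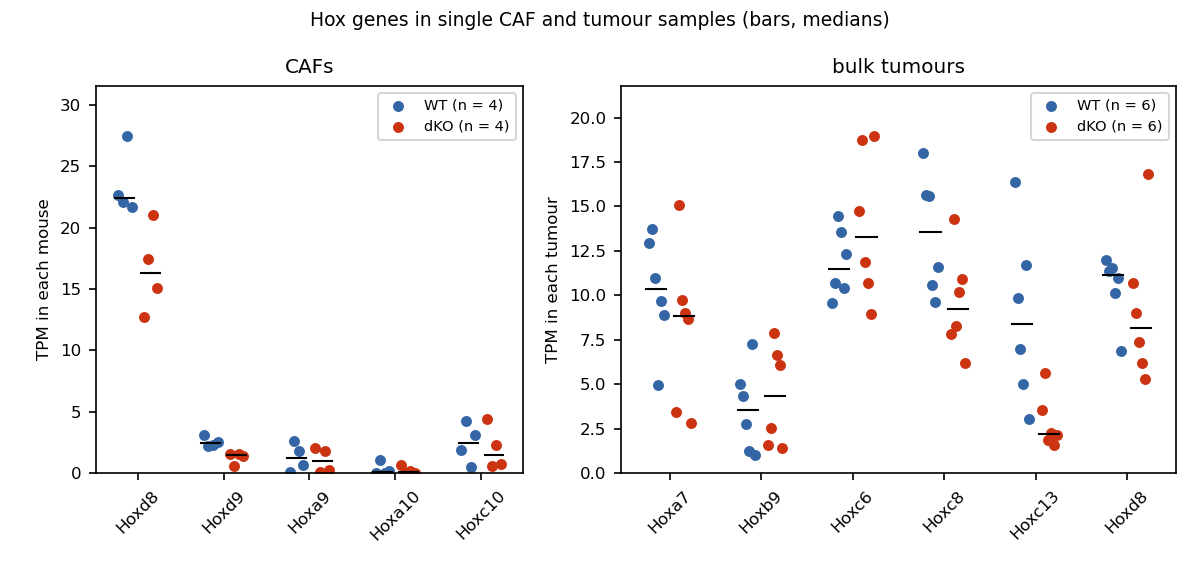
Level (TPM) of 5 Hox genes in each CAF library and of 6 Hox genes in each bulk tumour library, with 1 point per library, WT and dKO in separate colours and bars at the medians. Hoxd8 and Hoxd9 in the CAFs are lower in all dKO libraries than in any WT library. Of all genes tested in the CAFs, 6.74% were so separated. In bulk tumours the genotypes overlap.

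CD8+ T cells, prepared from 5000 cells with a low-input kit, had 1 Hox gene above the count filter. Hoxa7, a gene also active in blood cell progenitors, was measured at 0.508, 3.69, 0.352 and 0.145 TPM in WT and at 3.41, 3.98, 5.81 and 1.60 TPM in dKO. The dKO values were higher apart from WT library 2, which overlapped them, and the difference did not pass (log2 fold change 1.75 ± 0.80, adjusted p = 0.507; DESeq2 did not call Hoxa7 either). In the T cells 0.261% of all 14944 genes were called higher and 0.234% lower.

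In the iDFs, by contrast, the genotypes differed over whole stretches of clusters A and C. At 0 min, 34 Hox genes were tested, 12 were called higher in dKO and 5 lower, against 3.93% and 5.11% of all 15047 genes tested. The median log2 fold change was 0.49 over the Hox genes and 0.00 over all genes. The higher genes lay in cluster A apart from Hoxc8. Of the 5 lower genes, 4 were the adjacent Hoxc10, Hoxc11, Hoxc12 and Hoxc13 at the 5′ end of cluster C, and the other was Hoxb13. The number of expressed Hox genes was 27 in WT and 32 in dKO: Hoxa2, Hoxa3, Hoxa4, Hoxa13 and Hoxd9 were among those above the threshold in dKO alone, and Hoxb13 was above it in WT alone.

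The anterior cluster A genes were close to silent in WT cultures. Hoxa2, a hindbrain and neural crest patterning gene, stood at 0.267 and 0.0898 TPM in WT and at 2.98 and 2.81 TPM in dKO (3.97 ± 0.47, adjusted p = 0.000296). Hoxa3 rose from 0.972 and 0.766 TPM to 4.13 and 4.19 TPM (2.34 ± 0.23, adjusted p = 0.000106). In both genes the dKO libraries were above the WT libraries, and the replicates of a genotype lay close together in dKO.

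The middle and posterior genes of cluster A were already expressed in WT. Hoxa5, a lung and thoracic patterning gene, stood at 2.59 and 3.16 TPM in WT and 9.62 and 9.33 TPM in dKO (1.79 ± 0.17). Hoxa7 showed the largest step among the genes above 2 TPM in WT, from 2.87 and 2.35 TPM to 16.99 and 19.3 TPM (2.89 ± 0.13, adjusted p = 1.42e-06). Hoxa9 stood at 12.2 and 11.1 TPM in WT and at 22.5 and 29.5 TPM in dKO (0.98 ± 0.13, adjusted p = 0.000586). On the log2 scale the increases were smallest for the 2 cluster A genes that were highest in WT, Hoxa9 and Hoxa10; in TPM they were of about the same size as that of Hoxa7.

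Hoxa10 was measured at 18.3 and 17.2 TPM in WT and at 33.7 and 31.6 TPM in dKO (0.92 ± 0.08, adjusted p = 6.66e-05). Hoxa11, a limb and uterus patterning gene, went from 5.55 and 5.75 TPM to 16.4 and 15.9 TPM (1.58 ± 0.11, adjusted p = 1.35e-05). Hoxa13, the terminal gene of the cluster with roles in digits and the urogenital tract, went from 0.536 and 0.287 TPM to 7.02 and 6.30 TPM (4.21 ± 0.36, adjusted p = 5.79e-05). The 2 genes with the largest log2 fold changes, Hoxa2 and Hoxa13, thus lie near opposite ends of the cluster and have promoter windows with 6 and 35 CG, as printed above. Hoxa4 (2.27 ± 0.56, adjusted p = 0.0156) and Hoxa6 (1.95 ± 0.27) were higher as well, but the call on Hoxa4 was lost in part of the alternatives. Transcripts of neighbouring cluster A genes overlap (Hoxa3 spans several), so the split of reads among them is uncertain.

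Cluster C changed in opposite directions along its length. Hoxc8 stood at 36.5 and 38.2 TPM in WT and at 73.4 and 82.4 TPM in dKO (1.12 ± 0.06, adjusted p = 5.01e-06). Hoxc10, which marks lumbar and hindlimb levels, fell from 51.6 and 49.3 TPM to 8.81 and 8.75 TPM (-2.46 ± 0.08, adjusted p = 2.02e-07). Hoxc11 fell from 9.72 and 10.6 TPM to 2.06 and 2.54 TPM (-2.08 ± 0.15, adjusted p = 1.56e-05). The change of direction thus lay between Hoxc9, at 20.3 and 20.6 TPM in WT and 30.1 and 33.0 TPM in dKO (0.69 ± 0.09), and Hoxc10.

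Hoxc12 fell from 4.70 and 5.52 TPM to 1.196 and 1.28 TPM (-1.97 ± 0.26, adjusted p = 0.000532) and Hoxc13 from 5.33 and 4.33 TPM to 2.63 and 2.54 TPM (-0.84 ± 0.19, adjusted p = 0.00795). Hoxc6, the most abundant Hox gene, was at 134 and 137 TPM in WT and at 193 and 207 TPM in dKO, a difference with an adjusted p of 8.80e-05 that stayed under the fold threshold (0.61 ± 0.06). Hoxc4, Hoxc5 and Hoxc6 share exons in the annotation, which makes their separate levels uncertain.

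**Figure D3:**
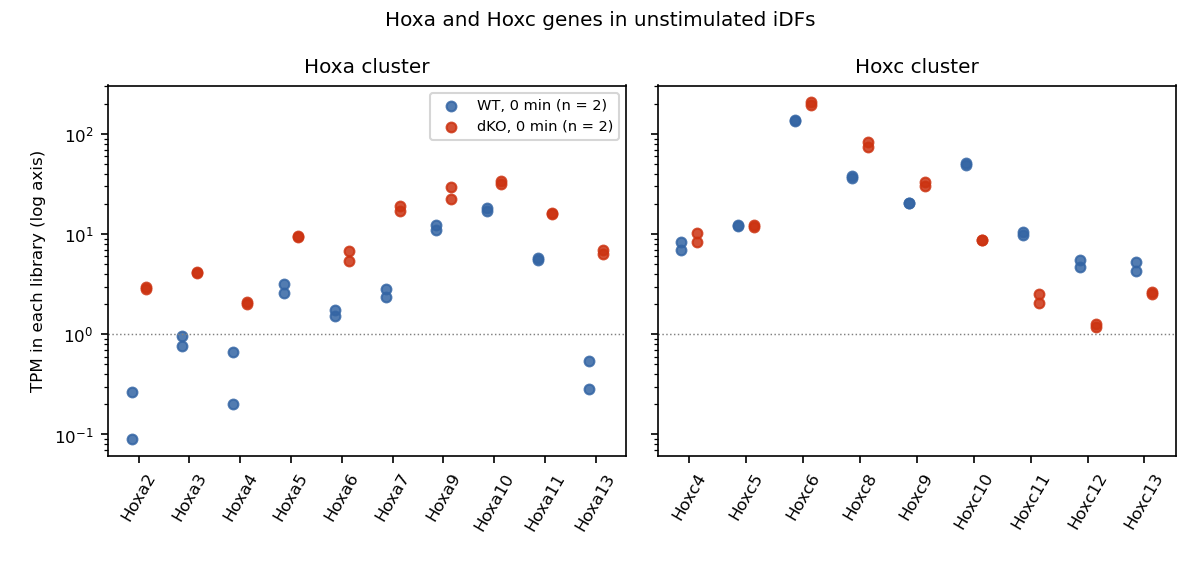
Level (TPM, log scale) of the genes of clusters A and C in order along the cluster in the iDF libraries at 0 min, 1 point per library, WT and dKO in separate colours and a dotted line at 1 TPM. In cluster A the dKO points are above the WT points at every gene shown, and in cluster C they are above at Hoxc8 and below from Hoxc10 to Hoxc13.

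Clusters B and D held 1 called gene. With no fold threshold, the counts over all 4 clusters were 18 higher and 7 lower. In cluster B, Hoxb8 went from 24.4 and 22.5 TPM in WT to 35.3 and 33.6 TPM in dKO (0.44 ± 0.07), and Hoxb3 from 12.1 and 10.7 TPM to 17.3 and 16.8 TPM (0.53 ± 0.11). Hoxb6 went from 22.8 and 24.8 TPM to 18.8 and 15.8 TPM (-0.43 ± 0.09). The genotypes did not overlap in these 3 genes, all of which passed the adjusted p but not the fold threshold. The call on Hoxb13 rested on 1.35 and 1.02 TPM in WT against 0.704 and 0.512 TPM in dKO (-0.89 ± 0.30, adjusted p = 0.0485; DESeq2 adjusted p = 0.347). Hoxb7 was measured at 26.7 and 23.3 TPM in WT and at 14.99 and 13.99 TPM in dKO, just under the fold threshold (-0.74 ± 0.12, adjusted p = 0.00181). Hoxb9 stood at 86.5 and 83.5 TPM in WT and 78.7 and 71.1 TPM in dKO (-0.11, adjusted p = 0.15). The abundant cluster D genes had closely similar values in both genotypes, Hoxd4 at 14.8 and 15.04 TPM in WT and 12.5 and 14.97 TPM in dKO, and Hoxd8 at 17.4 and 16.7 TPM and 16.7 and 18.9 TPM (0.18, adjusted p = 0.127). The summed Hox level was 683 and 711 TPM in dKO, against 559 and 564 TPM in WT, and the share of paralogue groups 9 to 13 was 28.7% and 30.1%, against 37.6% and 38.5%.

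Noncoding RNAs inside the clusters were called in the direction of their coding neighbours in clusters A and C. Of 19 such RNAs listed, 9 could be tested at 0 min, of which 4 were called higher and 2 lower in dKO iDFs. Hotairm1, a noncoding RNA of cluster A, stood at 16.4 and 16.8 TPM in WT and 38.96 and 39.3 TPM in dKO (1.25 ± 0.34, adjusted p = 0.0202), and Hoxa11os, antisense to Hoxa11, at 5.52 and 7.90 TPM and 21.4 and 21.6 TPM (1.62 ± 0.15, adjusted p = 7.72e-05). Hotair, transcribed between Hoxc11 and Hoxc12, stood at 1.36 and 1.44 TPM in WT and at 0 and 0.196 TPM in dKO (adjusted p = 0.00377). The cluster A transcript Hoxaas2 stayed under 1 TPM in both genotypes (adjusted p = 0.00111).

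In cluster B, Hoxb5os went from 0.867 and 1.38 TPM to 8.18 and 9.08 TPM (3.00 ± 0.39, adjusted p = 0.000467), while Hoxb5 itself had 5.83 and 5.95 TPM in WT and 5.404 and 6.65 TPM in dKO. Hoxb3os was called lower (-0.79 ± 0.22, adjusted p = 0.0256). Reads of antisense pairs can be told apart only by strand, and the sources used here do not give the strand setting of the quantification.

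Among the listed genes that act with or on Hox clusters, none was called between the genotypes in the iDFs at 0 min. Over all genes, 3.93% were called higher and 5.11% lower, so short lists would hold few calls at those shares. Of 9 TALE cofactors, the homeodomain proteins (Pbx, Meis and Pknox) that bind DNA with Hox proteins, 0 were called. Of 20 Polycomb genes, 0 were called, and of 13 trithorax, H3K27 demethylase and boundary genes, 0 were called. Fibroblast markers moved as well: 3 of 8 were called lower in dKO iDFs, with sums of 13280 and 14310 TPM in WT and 11960 and 12110 TPM in dKO, and their part in the Hox differences was not tested.

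In sorted CAFs the same comparison gave no called Hox gene. Of 24 Hox genes tested, 0 were called higher and 0 lower by edgeR, against 1.45% and 4.03% of all 15786 genes, and DESeq2 called 1 lower (Hoxd9). The unadjusted p was under 0.05 for 0 higher and 3 lower genes. The median log2 fold change was -0.11 over the Hox genes and 0.00 over all genes, with 7 above 0 and 17 below. TPM ranges of the genotypes did not overlap for 1 Hox gene that was higher in dKO and 2 that were lower, where 4.8% and 6.74% of all tested genes were so separated.

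Both lower genes lie in cluster D, but their number is near what the share over all genes would give. No pattern in cluster D is read from them. Hoxd8 was measured at 22.6, 22.1, 27.5 and 21.7 TPM in WT CAFs and at 12.8, 17.5, 21.02 and 15.1 TPM in dKO CAFs (-0.55 ± 0.12, adjusted p = 0.0256, under the fold threshold). Its adjusted p was 0.119 with a transcript length offset in edgeR and 0.000857 by DESeq2. With no fold threshold, 0 Hox genes were lower without the sex term, or without WT library 1, 2 or 3 or dKO library 1 or 4. Hoxd9 was measured at 3.12, 2.19, 2.32 and 2.57 TPM in WT and at 1.56, 0.545, 1.59 and 1.41 TPM in dKO (-1.0 ± 0.32, adjusted p = 0.0962 by edgeR and 0.0337 by DESeq2). All dKO libraries were below all WT libraries in both genes, with gaps of less than the spread within a genotype.

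Hoxc5 was the gene with higher TPM in dKO (3.94, 4.69, 6.05 and 4.08 TPM in WT; 6.54, 7.21, 6.53 and 6.24 TPM in dKO), but on counts it did not differ (0.06 ± 0.13, adjusted p = 0.815), and its transcripts overlap those of Hoxc4 and Hoxc6. Hoxc6 had 36.9, 24.6, 36.1 and 36.6 TPM in WT and 29.0, 25.4, 38.4 and 35.97 TPM in dKO (-0.06 ± 0.11, adjusted p = 0.77). Hoxc8 had 16.6, 13.4, 25.03 and 23.1 TPM in WT and 12.4, 11.8, 20.3 and 17.2 TPM in dKO, with overlapping ranges (-0.32 ± 0.10, adjusted p = 0.0864). The keratinocyte marker sum ranged from 43.4 to 82.1 TPM in WT CAFs and from 14.5 to 43.5 TPM in dKO CAFs (3 of 5 markers called lower), and the melanocyte sum from 332 to 485 TPM and from 79.3 to 310 TPM (1 of 6 called lower); the part of these other cells in the Hox values was not tested. The fibroblast sum ranged from 46650 to 57750 TPM in WT and from 54250 to 70610 TPM in dKO, with 0 of 8 markers called.

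The posterior genes Hoxa9, Hoxa10 and Hoxc10 varied more among CAF libraries of the same genotype than between genotypes. Hoxa9 was measured at 0.128, 2.58, 1.79 and 0.641 TPM in WT and at 2.03, 0.0960, 1.77 and 0.275 TPM in dKO, and Hoxc10 at 1.87, 4.22, 0.534 and 3.07 TPM in WT and at 4.41, 0.551, 2.25 and 0.769 TPM in dKO. Hoxa10 reached 1.102 TPM in WT library 2 and 0.682 TPM in dKO library 1 and stayed under 0.2 TPM in the other 6. Library 2 in WT and library 1 in dKO were thus the highest of their genotype in all 3 genes. The coefficient of variation over the WT libraries was 86.3% for Hoxa9 and 65.4% for Hoxc10, against 17.7% for Hoxc6 and 11.5% for Hoxd8. Both of these libraries came from males, as did WT library 1 and dKO library 2; libraries 3 and 4 of each genotype came from females.

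Among cofactors in the CAFs, Meis3 was called lower in dKO (42.99 to 50.3 TPM in WT and 18.9 to 32.7 TPM in dKO; -0.80 ± 0.10, adjusted p = 0.0039), 1 of 8 TALE genes tested. Neither Polycomb genes (0 of 20) nor trithorax and boundary genes (0 of 13) were called. Of the cluster RNAs, 0 of 3 tested were called. Over all genes in the CAFs, 1.45% were called higher and 4.03% lower, so lists this short would hold few calls at those shares.

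The difference between the genotype effects of CAFs and iDFs was tested in 1 fit, with a spread shared by both kinds of library. The common spread (biological coefficient of variation) was 0.180 in the CAFs alone, 0.0678 in the iDFs alone and 0.144 in the joint fit. On this scale the p-values take too small a spread for the CAFs and too large a spread for the iDFs. The dKO effect was lower in CAFs than in iDFs at 0 min for 11 of 35 Hox genes and higher for 0 (edgeR, adjusted p under 0.05 with no fold threshold), against 7.82% and 6.57% of all 17619 genes tested, with a median difference of -0.63 over the Hox genes. The 11 genes were Hoxa2 to Hoxa7 of cluster A, together with Hoxb4, Hoxc6, Hoxc8, Hoxd8 and Hoxd9. In the CAFs alone 24 Hox genes passed the count filter, so the 35 include genes with few CAF reads. For Hoxa7 the log2 fold change was 2.89 in iDFs, while CAF levels were 3.59, 4.61, 5.53 and 5.55 TPM in WT and 5.18, 2.21, 4.21 and 3.17 TPM in dKO (difference -3.05, adjusted p = 0.000211). For Hoxc8 the difference was -1.46 (adjusted p = 2.78e-05) and for Hoxa2 -4.28 (adjusted p = 0.00237).

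For Hoxc10, the gene with the largest decrease in iDFs, the effect in CAFs was -0.24 ± 0.74 and the difference between the experiments was 2.18 ± 0.85 (adjusted p = 0.119), so the CAF libraries do not separate a loss from no change. The number of genes called fell to 5 without either of the WT iDF libraries at 0 min and to 6 without dKO iDF library 2.

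**Figure D4:**
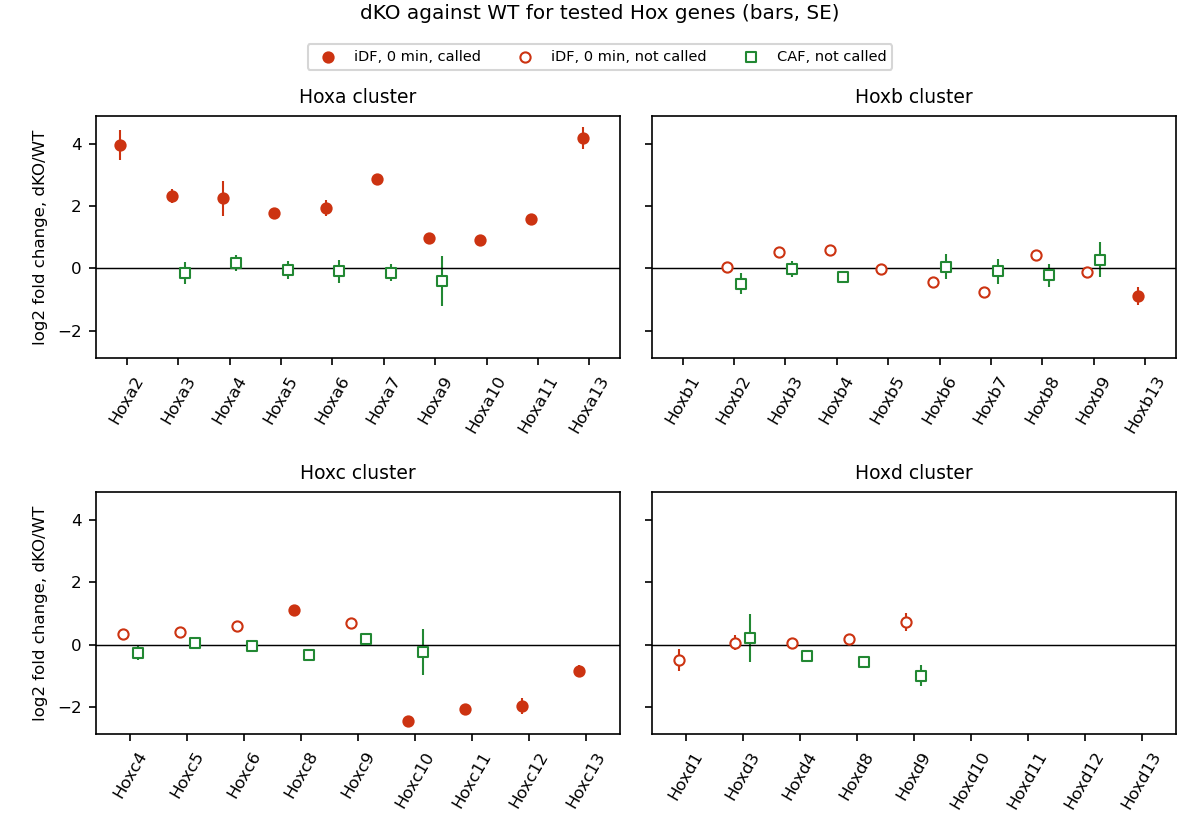
Log2 fold change of dKO against WT for each Hox gene tested in the iDFs at 0 min (circles, filled where called) and in the CAFs (squares), with SE as error bars and genes in cluster order. The cluster A genes shown are above 0 in the iDFs and lie near 0 in the CAFs, and Hoxc10 to Hoxc13 are below 0 in the iDFs.

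After 30 min of serum clusters A and C again differed between the genotypes. Of 34 Hox genes, 11 were called higher in dKO and 6 lower, against 3.88% and 5.08% of all 15047 genes, with a median log2 fold change of 0.45 over the Hox genes and -0.01 over all genes. The higher genes again lay in cluster A apart from Hoxc8 (1.14), while Hoxa9 stayed under the fold threshold (0.58, adjusted p = 0.0197). Hoxa13 was measured at 0.124 and 0.490 TPM in WT and 6.52 and 6.29 TPM in dKO (4.44), and Hoxc10 at 43.6 and 45.01 TPM and 8.56 and 7.24 TPM (-2.39). Hoxb7 (-0.80) and the low-level Hoxd1 (-1.36, adjusted p = 0.0428; DESeq2 adjusted p = 0.268) joined Hoxc10 to Hoxc13 among the lower genes.

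Few Hox genes were called between 0 and 30 min of serum. In WT iDFs 0 were called higher and 2 lower (Hoxa9 and Hoxb5), against 1.54% and 0.412% of all genes, and in dKO iDFs 0 higher and 2 lower (Hoxa9 and Hoxa3), against 2.14% and 1.14%. DESeq2 called 0 higher and 2 lower in WT and 0 higher and 1 lower in dKO. With no fold threshold, 1 Hox gene was higher in each genotype (Hoxb9), and 3 were lower in WT and 7 in dKO. The median log2 fold change of the Hox genes was -0.20 in WT, with 25 of 34 below 0, and -0.18 in dKO, with 28 of 34 below 0. Over all genes the median was -0.01 in WT and 0.00 in dKO.

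Hoxa9 went from 12.2 and 11.1 TPM to 6.86 and 5.61 TPM in WT (-1.04 ± 0.15, adjusted p = 0.00487) and from 22.5 and 29.5 TPM to 8.28 and 8.81 TPM in dKO (-1.45 ± 0.14, adjusted p = 0.000351). All 30-min libraries were below all 0-min libraries of their genotype. Its main protein-coding transcript went from 3.81 and 4.90 TPM to 1.79 and 1.90 TPM in WT and from 7.31 and 8.92 TPM to 3.11 and 2.38 TPM in dKO. The call in WT was lost when the fit was corrected for transcript length (adjusted p = 0.0607).

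Hoxb5 went from 5.83 and 5.95 TPM to 3.09 and 3.63 TPM in WT (-0.90 ± 0.14, adjusted p = 0.00598) and from 5.404 and 6.65 TPM to 4.05 and 3.92 TPM in dKO (-0.67, adjusted p = 0.0141, under the fold threshold). The call in WT was lost with a transcript length offset (-0.73, adjusted p = 0.0728) and without either 0-min WT library. The decrease lay in its retained-intron transcript, at 3.96 and 3.31 TPM before serum and 1.44 and 0.964 TPM after it in WT, whereas its protein-coding transcript had 1.86 and 2.64 TPM before and 1.65 and 2.66 TPM after. In dKO the retained-intron transcript went from 2.67 and 2.65 TPM to 0.907 and 0.474 TPM and the protein-coding transcript from 2.74 and 3.995 TPM to 3.15 and 3.45 TPM.

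Hoxb9 was the gene with an increase past the adjusted p threshold, by a small step in both genotypes. It went from 86.5 and 83.5 TPM to 105 and 102 TPM in WT (0.35 ± 0.05, adjusted p = 0.00615) and from 78.7 and 71.1 TPM to 91.1 and 88.0 TPM in dKO (0.36 ± 0.05, adjusted p = 0.00355). Hoxa3 in dKO went from 4.13 and 4.19 TPM to 2.07 and 2.17 TPM (-0.82 ± 0.21, adjusted p = 0.0401; DESeq2 adjusted p = 0.227).

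No serum response of a Hox gene was called different between the genotypes. The interaction called 0 of 34 Hox genes in either direction by edgeR, with 0 higher and 1 lower at an unadjusted p under 0.05, and 0 by DESeq2, where 0.0133% of all genes were called in the positive direction and 0% in the negative. For Hoxa9 it was -0.41 ± 0.20 (adjusted p = 1). Of 20 Polycomb genes, 1 was called higher and 1 lower after serum in each genotype, the lower one being Cbx2 (-0.95 in WT and -0.96 in dKO). Over all genes, 1.54% were called higher and 0.412% lower after serum in WT, and 2.14% and 1.14% in dKO. Of 13 trithorax, H3K27 demethylase and boundary genes, 1 was called higher in dKO (Kdm6b, 0.95, adjusted p = 0.0196) and 0 in WT. The interaction called 0 genes of either list.

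**Figure D5:**
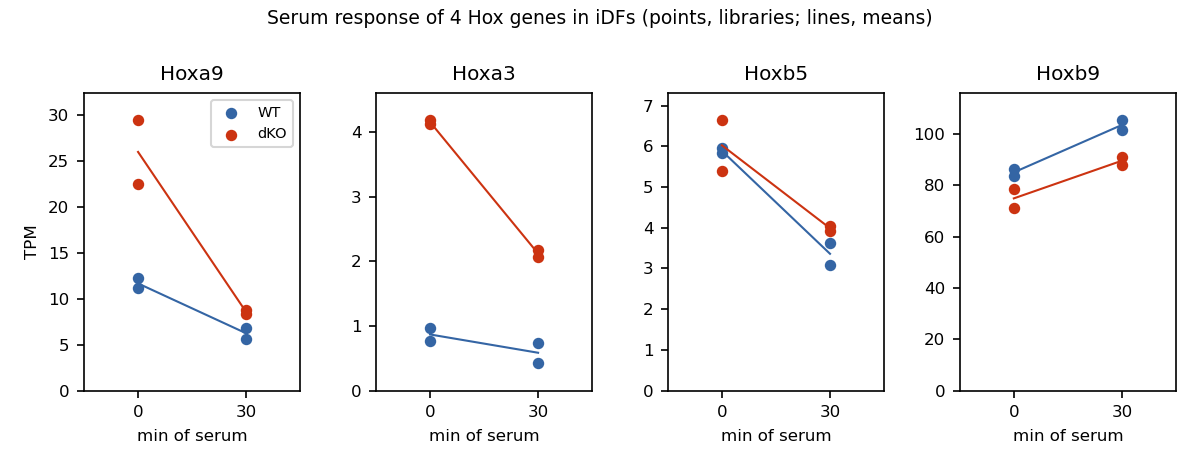
Level (TPM) of Hoxa9, Hoxa3, Hoxb5 and Hoxb9 in the iDF libraries before serum (0 min) and after it (30 min), with 1 point per library, lines through the means and the genotypes in separate colours. Hoxa9 and Hoxb5 are lower after serum and Hoxb9 is higher in both genotypes, and Hoxa3 falls from 4.13 and 4.19 TPM to 2.07 and 2.17 TPM in dKO.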

How the data were processed

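RNA-seq libraries with 75-base single reads were mapped by the authors to the Gencode M25 gene set (GRCm38.p6) with salmon 1.2.1. The deposited files hold estimated counts and TPM per transcript for each of the 36 samples. Here, transcripts were assigned to genes with Gencode M21 (139791 of 140992 transcripts, 99.15%), estimated counts were summed per gene and rounded to whole numbers, and TPM were summed per gene. Counts without a gene (0.246% to 0.521% per library) were left out. Summed counts per library were 22245177 to 85432438 in bulk tumours, 17526681 to 28690034 in CD8+ T cells, 20164075 to 29135123 in CAFs and 22560402 to 30960463 in iDFs.

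Genes passing filterByExpr (minimum count 10, minimum total 15) were tested with edgeR 4.0.16 (TMM, robust quasi-likelihood, in R 4.3.3), and p-values were adjusted over all genes tested by Benjamini-Hochberg. Models held batch and sex (bulk), sex (T cells and CAFs) or the 4 groups (iDFs). The joint fits covered all CAFs with all iDFs and all CAFs with all bulk tumours. Calls needed an adjusted p under 0.05 together with a log2 fold change beyond 0.75 in either direction; differences between effects had no fold threshold. The test was checked on simulated counts. Alternatives were DESeq2 1.42.0, other size factors, no count filter, a transcript length offset, other covariates, the replicate number as a block and leaving out each library.

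Every Hox gene could be named; sample values were printed for called genes, genes without overlap, the most abundant and those at the ends of the expressed ranges, and other genes came from fixed lists. The Hox genes and these lists were chosen with earlier results of these data known, and the hair keratin list after its values were seen. Replicate libraries of 1 group all differed beyond sampling noise. Promoter sequences are from RefSeq; a promoter of Hoxc10 and protein sequences were not used here. Results on some genes, and 1 allele of the mouse model, are not reported here.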

Additional observations from a re-analysis of the deposited data

Results flagged for a closer look

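Genotype effects differed between CAFs and iDFs at 0 min, by the joint edgeR fit, for 11 Hox genes. The dKO effect in CAFs minus that in iDFs (log2) was -4.28 for Hoxa2, -2.49 for Hoxa3, -2.12 for Hoxa4, -1.86 for Hoxa5, -2.06 for Hoxa6, -3.05 for Hoxa7, -0.88 for Hoxb4, -0.68 for Hoxc6, -1.46 for Hoxc8, -0.75 for Hoxd8 and -1.74 for Hoxd9. The calls on Hoxa2, Hoxa7 and Hoxc8 held under every alternative run.

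Single libraries stood apart from the rest of their group in 9 of 95 pairs of a Hox gene and a group examined by the gap to the nearest library, where chance flags about 1 in 20. In WT tumours these were Hoxa6 in tumour 2 (1.31 TPM) and Hoxd8 in tumour 6 (6.87 TPM), and in dKO tumours Hoxa9 in tumour 2 (1.53 TPM). Hoxa7 in WT CD8+ T cells stood apart in library 2 (3.69 TPM). In WT CAFs, library 2 stood apart in Hoxa10 (1.102 TPM) and Hoxc6 (24.6 TPM), library 1 in Hoxb7 (0.972 TPM) and library 3 in Hoxd8 (27.5 TPM). In dKO CAFs, library 2 stood apart in Hoxd9 (0.545 TPM).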

How the results depend on the processing

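In the iDFs at 0 min, 11 of the 12 Hox genes called higher in dKO and 3 of the 5 called lower (Hoxc10, Hoxc11 and Hoxc12) were called under every alternative run; Hoxa4, Hoxb13 and Hoxc13 were not. At 30 min the numbers were 8 of 11 and 3 of 6, in WT CAFs against WT iDFs 3 of 4 and 23 of 23, and in WT CAFs against WT tumours 4 of 5 and 8 of 11. With no fold threshold, the counts of called Hox genes became 1 lower in CAFs, 19 higher in dKO iDFs at 30 min (11 with it), 1 higher after serum in each genotype and 7 lower after serum in dKO (2 with it). DESeq2 called 1 lower in CAFs and 1 lower after serum in dKO. A transcript length offset left 0 of 2 calls after serum in WT and 1 of 2 in dKO, and 1 gene rose after serum in WT without the low-count filter. In the dKO CAFs, 11 Hox genes were expressed at a threshold of 2 TPM and 12 when every sample had to reach 1 TPM (19 by the median). Of the single gene values recomputed, 1853 kept their direction and side of the threshold, 104 lost the call, 2 gained it, 11 changed sign without being called (10 of them in bulk tumours) and 0 reversed a called direction.

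Whether the replicate numbers of the iDFs pair the samples is not settled. The correlations of same-numbered deviations were 0.0182 to 0.132, on both sides of the 0.1 set for pairing, with 2 numbers only. With the replicate block, 12 Hox genes were higher and 5 lower in dKO at 0 min, 11 and 6 at 30 min, 1 higher and 2 lower after serum in WT, 0 and 2 after serum in dKO, and 0 in the interaction.

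Leaving out each library in turn gave the following lowest and highest counts of called Hox genes: iDFs at 0 min 11 to 12 higher and 3 to 5 lower (3 without WT replicate 1); at 30 min 10 to 11 and 4 to 6; serum in WT 0 to 1 and 0 to 2 (1 higher without WT 30-min replicate 1; 1 and 0 lower without WT 0-min replicate 1 and 2); serum in dKO 0 higher and 1 to 2 lower (1 without WT 0-min replicate 1 or 2, dKO 0-min replicate 2 or dKO 30-min replicate 1 or 2); WT CAFs against WT iDFs 3 to 6 and 23; CAF against iDF effects 0 to 1 higher (1 without dKO CAF replicate 2) and 5 to 11 lower; WT CAFs against tumours 4 to 6 and 9 to 11. In bulk tumours, T cells, CAFs and the interaction it stayed at 0. The number of expressed Hox genes ranged from 16 to 20 in dKO CAFs. In iDFs the lone library left in a group was assumed to vary like the other groups. Genes under 1 TPM rest on few reads, which limits their comparison.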
